A study of Mus musculus with 32 samples.

Results

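Cps1, Ass1, Asl, Arg1, Hal, Sds, Gls2, Cyp2f2, Hsd17b13 and Pigr are genes that hepatocytes beside the portal tract are known to express more strongly than hepatocytes beside the central vein. They were taken by name, with earlier results of these data known, and are 10 of the 54532 genes in the deposited table of read counts. Liver RNA had been sequenced from 32 C57BL/6 mice aged 12 weeks, 1 library a mouse, in 8 groups of 4. The groups cross sex, Cyp2c70 genotype (WT or KO) and diet (chow or SC-435), so that male and female WT and KO mice on chow stand beside male and female WT and KO mice on SC-435. Cyp2c70 is the enzyme with which mice make muricholic acids. The KO mice carry a CRISPR-Cas9 deletion that takes in exon 2 of Cyp2c70, are deficient in every tissue and descend from 1 founder line. SC-435 blocks ASBT, the carrier that takes up bile acids from the ileum, and was mixed into the diet at 0.006%, about 11 mg/kg/day. None of the mice was fasted, and the other 4 groups stayed on chow.

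Blood enters the liver lobule at the portal tract, loses oxygen and nutrients on its way and leaves at the central vein, and hepatocytes along this path divide the work. Those on the portal side break down amino acids, make glucose and convert the freed ammonia to urea, while those around the central vein capture what ammonia is left as glutamine. Portal hepatocytes are also the ones nearest to the bile ducts. The 10 genes cover 4 enzymes of the urea cycle (Cps1, Ass1, Asl and Arg1), 3 enzymes that release nitrogen from amino acids (Hal, Sds and Gls2) and 3 genes with other tasks, namely the cytochrome P450 Cyp2f2, the lipid droplet protein Hsd17b13 and the immunoglobulin receptor Pigr.

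Library totals lay between 36476021 and 44771350 counts. Male WT chow mouse 1 stood apart. Its TMM factor, edgeR's correction for differences in RNA composition, was 0.622, against 0.964 to 1.004 in the other 3 mice of its group, and its mean correlation with its own group was 0.929, against 0.971 to 0.973. The 10 genes held 1.43% of its counts and 1.42% to 1.49% of the counts of the other 3, but after scaling it had the highest level of its group for 8 of the 10 genes. Its summed hepatocyte markers stood at 169008 CPM, against 65057 to 74709, and its summed erythroid markers at 656 CPM, against 130 to 154. Their part in its levels was not tested. Results that use male WT mice on chow are therefore also given without this mouse. Male WT SC-435 mouse 4 also lay away from its group. Its counts differed from those of the other 3 by a chi-square of 276 to 320.4 per gene, against 25 to 32.9 among them. The 10 genes held 1.01% of its counts, against 1.38% to 1.56%, and it was the lowest of its group for 7 of them. Its summed neutrophil markers stood at 4.42 CPM, against 0.614 to 0.712, and their part in its levels was not tested. Cyp2c70 itself was lower in KO than in WT mice on chow, by a log2 difference of -2.10 ± 0.13 in females and -1.81 ± 0.19 in males, in the direction of the genotype labels. All 32 mice had counts for the hepatocyte markers Alb, Ttr, Apoa1 and Serpina1c, whose summed level was 82621 to 107746 CPM in female WT and 45596 to 66330.3 CPM in female KO mice on chow.

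Levels are in CPM, counts scaled by TMM to a library of 1000000. Per kilobase of gene length in female WT mice on chow, Ass1 stood highest at 948 ± 299 CPM/kb (SD, n = 4), followed by Cps1 at 671 ± 46.4, Pigr at 478 ± 56.2, Arg1 at 451 ± 43.2 and Cyp2f2 at 416 ± 32.7. A second tier held Hsd17b13 at 128 ± 15.5 CPM/kb, Gls2 at 122 ± 28.9, Hal at 103 ± 17.3, Sds at 94.8 ± 28.4 and Asl at 86.6 ± 24.3. Neighbours in this order overlapped between mice except at the steps from Cps1 to Pigr and from Cyp2f2 to Hsd17b13. In male WT mice on chow Ass1 and Cps1 again led per kilobase, Cyp2f2 came next at 814 ± 268 CPM/kb, and Hal came last at 120.0 ± 29.1. Within the urea cycle, the level of Asl per kilobase was thus far under that of Ass1, the enzyme just before it in the cycle. These levels depend on the deposited gene length, 4831 bases for Asl and 2414 for Ass1. Not divided by length, the means in female WT mice on chow were 418 ± 118 CPM for Asl and 2288 ± 721 for Ass1 (SD, n = 4).

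**Figure D1:**
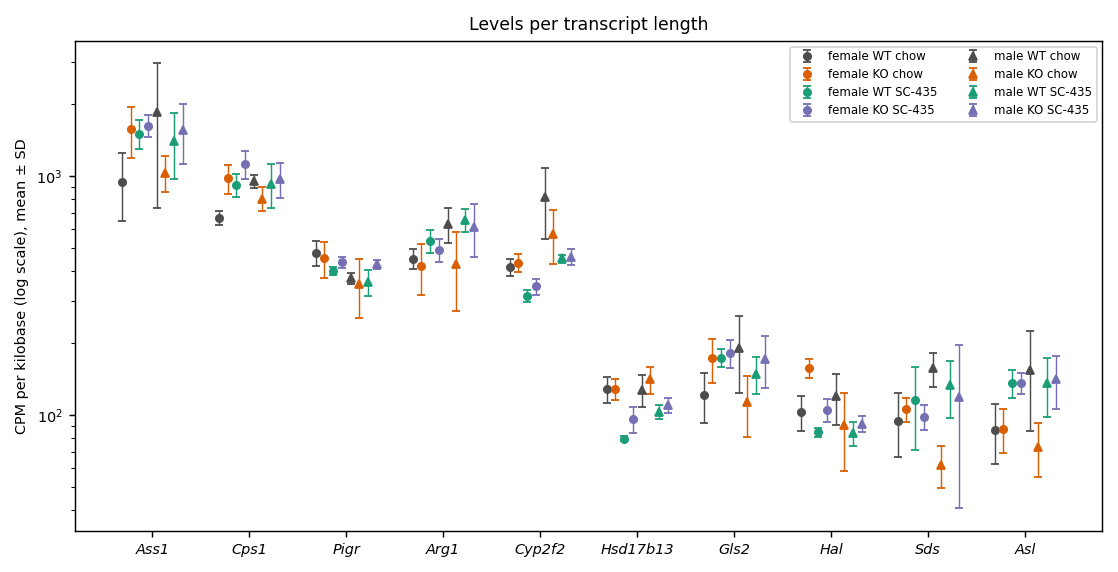
Level of each of the 10 genes per kilobase of gene length (CPM/kb, log axis) in the 8 groups, as the mean with bars for the SD of 4 mice, circles for females and triangles for males. Among WT mice on chow Ass1 and Cps1 lie at the top in both sexes, at means of 948 and 671 CPM/kb in females, and Asl lies at the bottom in females at 86.6 CPM/kb.

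The genes differed in how far they varied. The ratio of the highest to the lowest of the 8 group means was smallest for Pigr (1.36) and largest for Cyp2f2 (2.59), Sds (2.54) and Asl (2.1), beside a median of 1.72 over 17530 genes. Spread between mice of the same group was smallest for Cyp2f2, with a median coefficient of variation of 7.81%, and largest for Ass1 at 25.8% and Asl at 25.5%. For the 5333 genes averaging 1000 or more counts, that median was 9.06%.

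**Figure D2:**
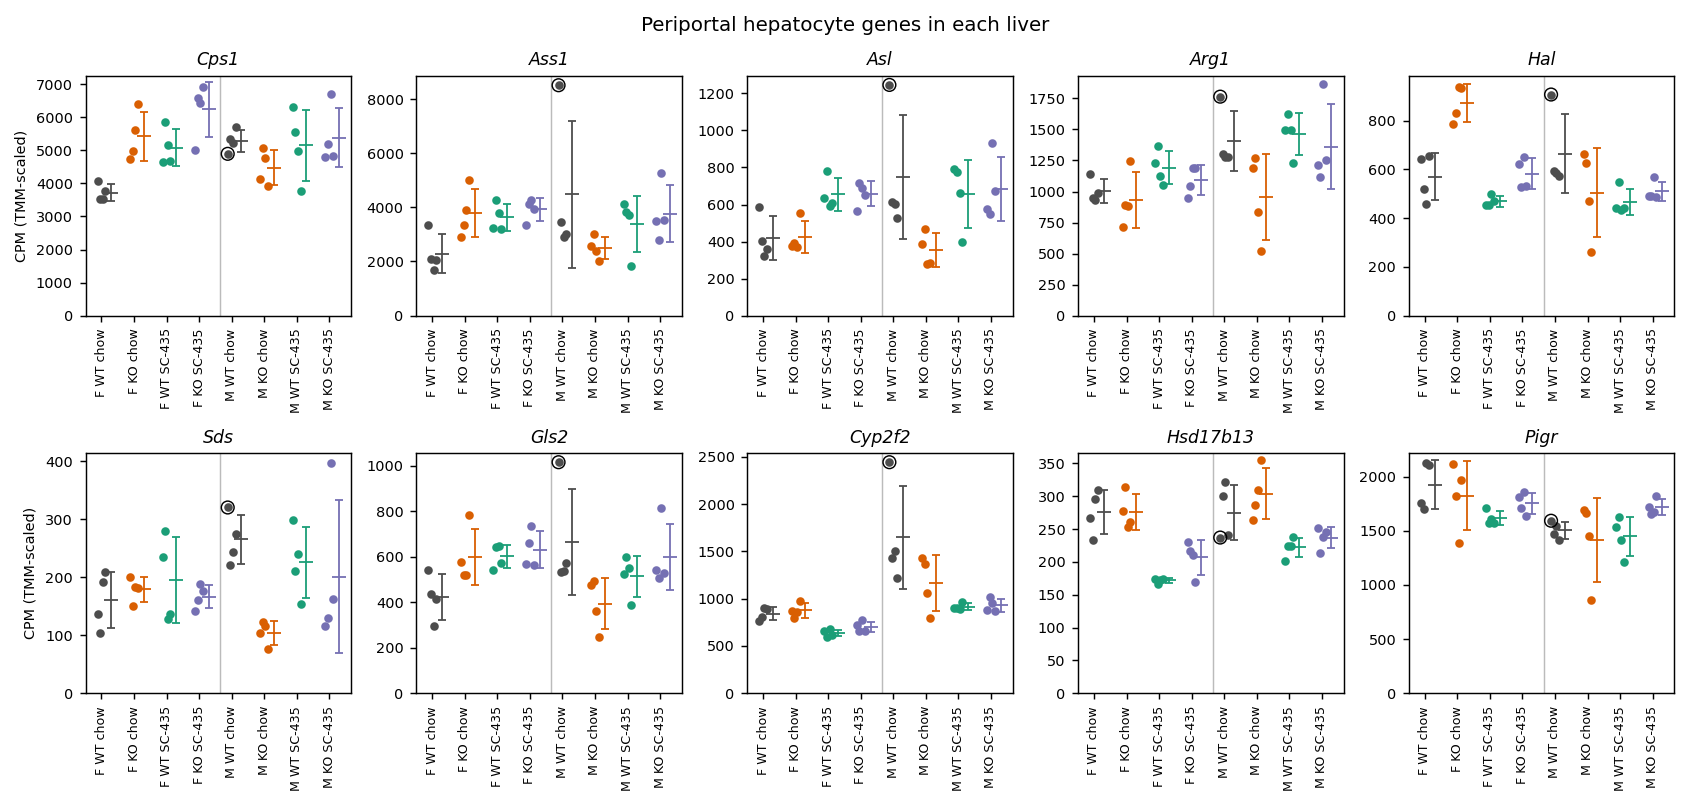
Level of each gene (CPM, axis from 0) in each of the 32 mice by group, with bars for the mean and SD of 4 mice and a ring around male WT chow mouse 1. Cyp2f2 and Hsd17b13 sit lower in the SC-435 groups than in the chow groups of the same sex and genotype, and the ringed mouse stands far above its group for Ass1, at 8512 CPM.

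Differences between groups were tested with edgeR's quasi-likelihood test on the 8 libraries of each comparison, with Benjamini-Hochberg adjustment over all genes tested, and a gene passed at an adjusted p under 0.05. Folds are log2 differences ± SE. On chow, 2 of the 10 genes were higher in female KO than in female WT mice, Cps1 and Hal, and none was lower. Of all genes tested, 9.83% were higher and 5.05% lower there. Male KO mice on chow had 1 gene lower than male WT mice, Sds, against 0.151% of all genes lower and 0.933% higher. With male WT chow mouse 1 left out the count was again 1, Sds, against 2.92% of all genes lower. With the number of the mice as a block, a pairing that the labels do not state, the count was 0 with all 8 mice. These are whole-liver libraries, in which fewer cells of a type and less RNA per cell cannot be told apart.

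Between SC-435 and chow, 4 genes passed in female KO mice, 3 in female WT mice and 1 in male KO mice. In female KO mice Asl was higher on SC-435 than on chow and Hal, Cyp2f2 and Hsd17b13 were lower, against 8.56% of all genes higher and 9.23% lower. In female WT mice Cps1 was higher and Cyp2f2 and Hsd17b13 were lower, where 2.4% of all genes were higher and 1.88% lower. Male KO mice had Asl higher, where edgeR passed 8.8% of all genes as higher and 8.36% as lower. DESeq2 passed 5 of the 10 there (Ass1, Asl, Sds and Gls2 as higher, Hsd17b13 as lower). In male WT mice edgeR passed 0 of the 10, 2 at an unadjusted p under 0.05, and 0.0394% of all genes. DESeq2 passed 0 of the 10 and limma's voom with quality weights 2 (Cyp2f2 and Hsd17b13). Shares of all genes passing with DESeq2 or voom were not counted, here or below. Without male WT chow mouse 1, edgeR passed 1 gene there, Cyp2f2, as lower on SC-435, against 1.12% of all genes lower. Without male WT SC-435 mouse 4 edgeR again passed 0 of the 10. The differences were then 0.10 ± 0.19 for Cps1, -0.18 ± 0.40 for Ass1, 0.01 ± 0.31 for Asl, 0.14 ± 0.19 for Arg1 and -0.47 ± 0.22 for Hal (edgeR adjusted p from 0.908 to 0.996). For the others they were -0.07 ± 0.20 for Sds, -0.24 ± 0.26 for Gls2, -0.86 ± 0.26 for Cyp2f2, -0.34 ± 0.19 for Hsd17b13 and 0.03 ± 0.16 for Pigr (edgeR adjusted p from 0.576 to 0.971). Those of Cps1, Asl and Pigr thus turned from negative to positive without this mouse. The sex difference in these diet responses was tested in KO mice as an interaction, described further on, and passed for 0 of the 10 genes.

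Genes whose mice did not overlap between the groups compared were also counted. On chow, 2 of the 10 had every female KO mouse above every WT mouse and 0 below, beside 12% and 8.82% of all genes, and in males 0 lay above and 4 below (Asl, Arg1, Sds and Gls2), beside 7.89% and 6.72%. With SC-435 the counts were 1 above and 3 below in female KO mice, beside 11.2% and 10.8%. They were 2 above and 2 below in female WT mice, beside 7.68% and 5.74%. Male KO mice had 2 above (Asl and Gls2) and 1 below (Hsd17b13), beside 13.5% and 12.4%, and male WT mice had 2 below (Cyp2f2 and Hal), beside 3.41%.

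**Figure D3:**
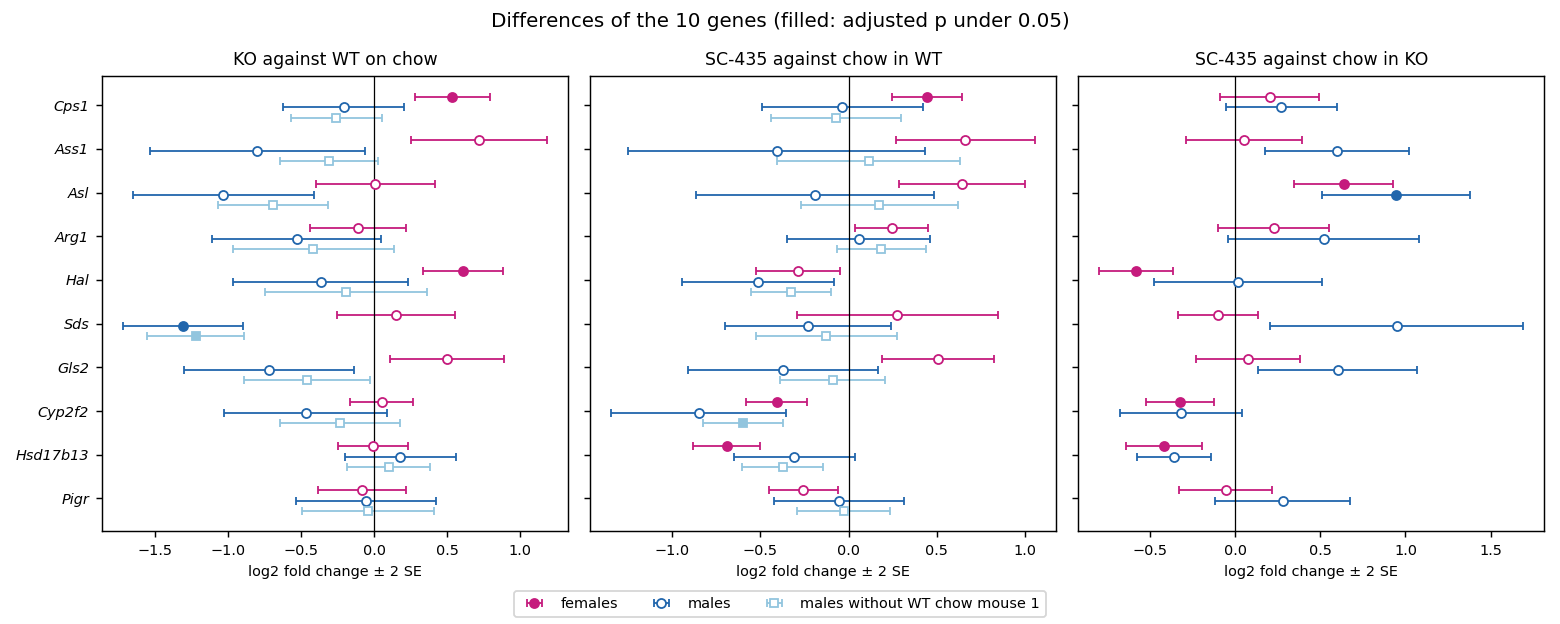
Log2 fold change of each gene with bars of 2 SE, in panels for KO against WT on chow, SC-435 against chow in WT and SC-435 against chow in KO, for females, males and, where male WT mice on chow take part, males without WT chow mouse 1. Filled symbols have an adjusted p under 0.05, and Sds in males on chow reaches -1.31 while Cyp2f2 and Hsd17b13 lie on the negative side in all 4 comparisons with SC-435.

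Cps1, carbamoyl phosphate synthetase, takes up ammonia in the first and rate-limiting step of the urea cycle (chr1:67123026-67231259, plus strand, GRCm38). In females Cps1 was at 4069.6, 3533, 3523 and 3776 CPM in WT mice on chow and 4724, 4992, 5612 and 6394 in KO mice on chow. On SC-435 female Cps1 was at 4648, 5852, 5151 and 4680.4 CPM in WT mice and 5026, 6584, 6446 and 6911 in KO mice. In males it was at 4896, 5329.6, 5219 and 5709.5 CPM in WT mice on chow and 4140.0, 5060.1, 4761 and 3936 in KO mice on chow. On SC-435 male Cps1 was at 6306, 5563, 4988 and 3762 CPM in WT mice and 4804, 5192, 6709 and 4843 in KO mice. The female WT mice on chow were thus the lowest of the female groups and lay below all mice of the other 3. Their difference to KO mice on chow was 0.53 ± 0.13, edgeR adjusted p = 0.021, and the call was lost without female WT chow mouse 2 (adjusted p = 0.07) or mouse 3 (0.0638). Cps1 rose with SC-435 in female WT mice (0.44 ± 0.10, edgeR adjusted p = 0.038), a call that held without WT chow mouse 1 (adjusted p = 0.0313) and was lost without any of the other 7, at adjusted p up to 0.101. In female KO mice, where the groups on chow and SC-435 overlapped, the difference was 0.20 ± 0.14, edgeR adjusted p = 0.356. None of the 3 male differences passed: -0.21 ± 0.21, edgeR adjusted p = 0.659 for KO against WT on chow (-0.26 ± 0.16, edgeR adjusted p = 0.313 without male WT chow mouse 1), -0.03 ± 0.23, edgeR adjusted p = 0.971 for SC-435 in WT (-0.07 ± 0.18, edgeR adjusted p = 0.872 without it) and 0.27 ± 0.16, edgeR adjusted p = 0.261 for SC-435 in KO mice.

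Ass1, argininosuccinate synthase, joins citrulline to aspartate and so brings in the other nitrogen of urea (chr2:31470207-31520672, plus strand). Its female levels were 3329.7, 2086, 1667 and 2071 CPM in WT mice on chow and 2913, 3353, 3889 and 5007 in KO mice on chow. On SC-435 female Ass1 was at 3247, 4273, 3799.8 and 3197 CPM in WT mice and 3334, 4129, 4264 and 3956 in KO mice. Its male levels were 8512, 3477, 2890.4 and 3024 CPM in WT mice on chow and 2565, 3023, 2389 and 2014 in KO mice on chow. On SC-435 male Ass1 was at 4135, 3836, 3721 and 1838 CPM in WT mice and 3478, 2806, 5263 and 3542 in KO mice. Female WT chow mouse 1 lay among the KO mice, and its other 3 group mates lay below every other female, so that the groups overlapped through this mouse. KO against WT on chow gave 0.72 ± 0.23, edgeR adjusted p = 0.0644 in females, and 0.0189 without that mouse. SC-435 in female WT mice likewise gave 0.66 ± 0.20, edgeR adjusted p = 0.0959, and 0.0135 without it, while in female KO mice the diets overlapped at 0.05 ± 0.17, edgeR adjusted p = 0.864. Male WT chow mouse 1 had more than any other mouse, and within its group also the highest share of raw counts, 5293 in 1000000 against 2787 to 3398 in the other 3. With it, KO against WT on chow was -0.80 ± 0.37, edgeR adjusted p = 0.341 in males, and without it -0.31 ± 0.17, edgeR adjusted p = 0.27. SC-435 gave -0.41 ± 0.42, edgeR adjusted p = 0.857 in male WT mice, a sign that turned without that mouse (0.11 ± 0.26, edgeR adjusted p = 0.852), and 0.60 ± 0.21, edgeR adjusted p = 0.0775 in male KO mice.

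Asl, argininosuccinate lyase, splits the product of Ass1 into arginine and fumarate (chr5:130011258-130029247, minus strand). Asl in females was at 587, 402, 321 and 362 CPM in WT mice on chow and 377, 391, 371 and 553 in KO mice on chow. On SC-435 female Asl was at 635, 784, 593 and 608 CPM in WT mice and 564, 719, 691 and 654 in KO mice. Asl in males was at 1246, 614, 602 and 529 CPM in WT mice on chow and 388, 469.8, 279.7 and 285 in KO mice on chow. On SC-435 male Asl was at 789.8, 774, 663 and 396 CPM in WT mice and 578, 549.9, 931 and 675 in KO mice. In KO mice of both sexes, all 4 mice on SC-435 lay above all 4 on chow. The SC-435 difference was 0.64 ± 0.14, edgeR adjusted p = 0.0163 in female KO mice and 0.95 ± 0.22, edgeR adjusted p = 0.0213 in male KO mice. In females the call was lost without KO chow mouse 2 (adjusted p = 0.0527), KO SC-435 mouse 2 (0.0572) or KO SC-435 mouse 3 (0.0502). In males it was lost without KO chow mouse 3 (adjusted p = 0.0622), KO SC-435 mouse 3 (0.0515) or KO SC-435 mouse 4 (0.0601).

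The female WT mice on SC-435 also had more Asl than all WT mice on chow, which did not pass the test (0.64 ± 0.18, edgeR adjusted p = 0.0753) except without female WT chow mouse 1 (adjusted p = 0.0121). Genotype left Asl in females on chow at a difference of 0.01 ± 0.20, edgeR adjusted p = 0.987. Male KO mice on chow had less Asl than all male WT mice on chow, without passing the test: -1.04 ± 0.31, edgeR adjusted p = 0.152 with and -0.69 ± 0.19, edgeR adjusted p = 0.0621 without male WT chow mouse 1. In male WT mice SC-435 gave -0.19 ± 0.34, edgeR adjusted p = 0.902, and the sign turned without that mouse (0.17 ± 0.22, edgeR adjusted p = 0.719).

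Arg1, arginase, releases urea from arginine and closes the cycle (chr10:24915221-24927484, minus strand). Arg1 ranged from 934 to 1144 CPM in female WT mice on chow, 716 to 1248 in female KO mice on chow, 1056 to 1364 in female WT mice on SC-435 and 947 to 1189 in female KO mice on SC-435. In males the ranges were 1276 to 1764, 517 to 1274, 1231 to 1626 and 1116 to 1865 CPM in the same order. All 4 male KO mice on chow lay below the male WT mice on chow, and the female groups overlapped. No difference of Arg1 between genotypes or diets passed with edgeR: genotype on chow gave -0.11 ± 0.16, edgeR adjusted p = 0.681 in females and -0.53 ± 0.29, edgeR adjusted p = 0.415 in males (-0.42 ± 0.28, edgeR adjusted p = 0.357 without male WT chow mouse 1). SC-435 in KO mice gave 0.23 ± 0.16, edgeR adjusted p = 0.361 in females and 0.52 ± 0.28, edgeR adjusted p = 0.213 in males. SC-435 in WT mice gave 0.24 ± 0.10, edgeR adjusted p = 0.231 in females and 0.06 ± 0.20, edgeR adjusted p = 0.946 in males (0.19 ± 0.13, edgeR adjusted p = 0.471 without male WT chow mouse 1). Without female KO chow mouse 4, the highest of its group, the difference in female KO mice passed with Arg1 higher on SC-435 (adjusted p = 0.0274).

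Hal, histidine ammonia-lyase, removes ammonia from histidine in the first step of its breakdown (chr10:93488768-93519304, plus strand). Hal, Cyp2f2 and Hsd17b13 are the members that were lower on SC-435 than on chow in the tests above, and each has a promoter in RefSeq (GRCm38.p6), where 5 of the 10 genes matched. Bases before the deposited start of each gene are shown 5′ to 3′ on the strand of the gene, so that a reader can see what the 3 share, with capitals for matches on either strand. The motifs searched were the TATA box with the letters TATAAA, the CCAAT box with the letters CCAAT, the core of the cAMP response element with TGACG, the core of nuclear receptor sites with AGGTCA and the core of HNF1 sites with GTTAAT, none of which overlapped another match.
Hal (chr10:93488518-93488767, plus strand): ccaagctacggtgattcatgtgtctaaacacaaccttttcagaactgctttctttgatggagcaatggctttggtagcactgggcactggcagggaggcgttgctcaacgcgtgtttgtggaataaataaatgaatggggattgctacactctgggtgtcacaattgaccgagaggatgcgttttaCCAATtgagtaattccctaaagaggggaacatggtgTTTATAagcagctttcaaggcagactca
Cyp2f2 (chr7:27119705-27119908, plus strand): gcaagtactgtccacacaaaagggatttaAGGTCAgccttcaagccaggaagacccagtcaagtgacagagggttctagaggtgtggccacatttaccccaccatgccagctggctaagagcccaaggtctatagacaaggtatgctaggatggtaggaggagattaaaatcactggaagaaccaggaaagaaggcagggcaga
Hsd17b13 (chr5:103977411-103977638, minus strand): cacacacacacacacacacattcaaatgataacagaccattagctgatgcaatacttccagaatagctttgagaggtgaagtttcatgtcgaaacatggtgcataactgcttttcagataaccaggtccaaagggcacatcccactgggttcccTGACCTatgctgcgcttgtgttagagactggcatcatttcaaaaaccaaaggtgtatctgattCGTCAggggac
The Hal window held CCAAT beginning 64 bases before the RefSeq start and TATAAA, on the opposite strand, at 28 bases. Of 32851 mouse promoter windows of the same length, 33.8% held CCAAT and 12.4% held TATAAA. Windows began 250 bases before the RefSeq start and were cut where the deposited gene begins, which left 204 bases for Cyp2f2 and 228 for Hsd17b13. Distances are counted from the RefSeq start, not from the end of the printed bases. The letters AGGTCA were in the windows of Cyp2f2 (221 bases before the RefSeq start) and Hsd17b13 (96 bases, opposite strand), and in 11.6% and 12.9% of all windows of those lengths. Hsd17b13 also had TGACG at 33 bases on the opposite strand, found in 15.7% of windows. No motif was common to the 3, and the windows of Ass1 and Pigr held none of the 5.

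Female Hal was at 644, 519.5, 459 and 656 CPM in WT mice on chow and 786, 832, 939.6 and 936 in KO mice on chow. On SC-435 female Hal was at 454, 452, 499 and 472 CPM in WT mice and 622, 527, 652 and 531 in KO mice. Male Hal was at 908, 596, 584 and 574 CPM in WT mice on chow and 662, 628, 469 and 262 in KO mice on chow. On SC-435 male Hal was at 444, 548, 433 and 441 CPM in WT mice and 491, 493, 569.6 and 487 in KO mice. In females the KO mice on chow stood above every mouse of the other 3 groups. They exceeded WT mice on chow by 0.61 ± 0.14, edgeR adjusted p = 0.017, a call lost without female WT chow mouse 2 (adjusted p = 0.0553). Under SC-435 Hal fell in female KO mice (-0.58 ± 0.11, edgeR adjusted p = 0.00794), and this held with any of the 8 mice left out. KO mice on SC-435 then differed from WT mice on chow by 0.03 ± 0.13, edgeR adjusted p = 0.898, in a comparison that shares its KO mice with the diet comparison and its WT mice with the genotype comparison. The female WT difference with SC-435 was -0.28 ± 0.12, edgeR adjusted p = 0.222.

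In males no difference of Hal between genotypes or diets passed with edgeR. KO against WT on chow was -0.37 ± 0.30, edgeR adjusted p = 0.582 with male WT chow mouse 1 and -0.20 ± 0.28, edgeR adjusted p = 0.678 without it, with male KO chow mouse 4 lowest of all mice at 262 CPM. The same mouse was lowest of its group for 8 of the 10 genes, and its summed cholangiocyte markers stood at 1179 CPM, against 144 to 489 in the other 3. Its summed macrophage markers stood at 805 CPM, against 229 to 311, and its stellate cell markers at 489 CPM, against 153 to 289. Its summed hepatocyte markers were the lowest of the group, at 45535 CPM against 58902 to 69489. Whether the bile duct signal or any of these had a part in its levels was not tested. All 4 male WT mice on SC-435 had less Hal than the WT mice on chow (-0.51 ± 0.21, edgeR adjusted p = 0.787, and -0.33 ± 0.11, edgeR adjusted p = 0.172 without male WT chow mouse 1), whereas KO mice differed by 0.02 ± 0.25, edgeR adjusted p = 0.969.

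Sds, serine dehydratase, turns serine into pyruvate and ammonia for glucose synthesis (chr5:120476526-120483932, plus strand). Sds in females was at 138, 105, 191 and 209 CPM in WT mice on chow and 201, 150.2, 184 and 181 in KO mice on chow. On SC-435 female Sds was at 235, 280.2, 129 and 137 CPM in WT mice and 142, 160.4, 188 and 177 in KO mice. Sds in males was at 320.4, 222, 244 and 275 CPM in WT mice on chow and 103, 123, 115 and 75.7 in KO mice on chow. On SC-435 male Sds was at 299, 210.2, 240.2 and 154 CPM in WT mice and 115, 129, 397 and 162 in KO mice. The male KO mice on chow lay below all male WT mice on chow, and the female groups overlapped throughout. Sds was lower in male KO than WT mice on chow (-1.31 ± 0.21, edgeR adjusted p = 0.0292), a fall to 0.403 of the WT level. It was -1.23 ± 0.17, edgeR adjusted p = 0.0112 without male WT chow mouse 1, and the call also held without KO chow mouse 2 and was lost without any of the other 6, at adjusted p up to 0.104. The labels do not pair the mice by number. With the number as a block the Sds difference was -1.32 ± 0.23 at an edgeR adjusted p of 0.0996, so that the call was lost. In females the genotype difference was 0.15 ± 0.20, edgeR adjusted p = 0.66. On the opposite strand the span of Sds overlaps that of Plbd2, whose counts over all libraries came to 55.2% of those of Sds. The antisense gene Gm15690, also over Sds, came to 4.43%. These genes were counted separately. Whether their exons overlap was not looked at, and strand was not stated for the counting. Reads from bases that Sds might share with them thus cannot be assigned to 1 gene.

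SC-435 in male KO mice gave 0.95 ± 0.37, edgeR adjusted p = 0.101 for Sds, where KO SC-435 mouse 3 at 397 CPM stood above the other 3. Without that mouse the log2 difference was 0.38 (adjusted p = 0.193). It was -0.23 ± 0.23, edgeR adjusted p = 0.856 in male WT mice (-0.13 ± 0.20, edgeR adjusted p = 0.777 without male WT chow mouse 1), -0.10 ± 0.12, edgeR adjusted p = 0.593 in female KO mice and 0.28 ± 0.28, edgeR adjusted p = 0.637 in female WT mice, so that Sds passed in no diet comparison with edgeR.

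Gls2, the liver glutaminase, frees ammonia from glutamine for the urea cycle (chr10:128194457-128210004, plus strand). Gls2 ranged from 298 to 543 CPM in female WT mice on chow, 518 to 782 in KO mice on chow, 541 to 648 in WT mice on SC-435 and 562 to 735 in KO mice on SC-435. The male ranges were 535 to 1016, 248 to 492, 387 to 598 and 506 to 814 CPM in that order. In males all 4 KO mice on chow lay below the WT mice on chow and below the KO mice on SC-435. Neither comparison passed with edgeR, at -0.72 ± 0.29, edgeR adjusted p = 0.281 (-0.46 ± 0.22, edgeR adjusted p = 0.209 without male WT chow mouse 1) and 0.60 ± 0.23, edgeR adjusted p = 0.0978. Among females, KO against WT on chow gave 0.50 ± 0.20, edgeR adjusted p = 0.115 and SC-435 in WT mice 0.51 ± 0.16, edgeR adjusted p = 0.112, the latter passing without female WT chow mouse 1 (adjusted p = 0.0357). Female KO mice differed by 0.08 ± 0.15, edgeR adjusted p = 0.77 between diets, and male WT mice by -0.37 ± 0.27, edgeR adjusted p = 0.836 (-0.09 ± 0.15, edgeR adjusted p = 0.786 without male WT chow mouse 1). Counts of Spryd4, which overlaps Gls2 on the opposite strand, came to 4.93% of those of Gls2 over all libraries.

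Cyp2f2, a cytochrome P450 that oxidises naphthalene and is a standard label of portal hepatocytes in mice (chr7:27119909-27133660, plus strand), was the member with the smallest median coefficient of variation within groups. That coefficient was larger for Cyp2f2 on chow in males, at 32.9% in WT and 25.2% in KO mice. In females Cyp2f2 was at 768, 804, 902 and 893 CPM in WT mice on chow and 873, 796, 859 and 979.9 in KO mice on chow. On SC-435 female Cyp2f2 was at 654, 598, 679 and 618 CPM in WT mice and 717, 656, 769 and 657 in KO mice. Males had 2442, 1425, 1506 and 1219 CPM in WT mice on chow and 1434, 1363, 1058 and 797 in KO mice on chow. On SC-435 male Cyp2f2 was at 898, 899.6, 895 and 967 CPM in WT mice and 882, 1014, 959 and 865 in KO mice. Every WT mouse on SC-435 lay below every WT mouse of its sex on chow, and the same was true of female KO mice. In male KO mice, chow mouse 4 fell below all mice on SC-435 and the groups overlapped. Cyp2f2 fell with SC-435 in female WT mice (-0.41 ± 0.09, edgeR adjusted p = 0.0309) and in female KO mice (-0.32 ± 0.10, edgeR adjusted p = 0.0496). Both calls were near the threshold: the WT call held without WT chow mouse 1 and was lost without any of the other 7 mice (up to 0.109), and the KO call was lost without any of the 8 (0.0615 to 0.145).

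Male WT mice had a Cyp2f2 difference with SC-435 of -0.85 ± 0.25, edgeR adjusted p = 0.49, and without male WT chow mouse 1, the highest of all mice, it passed at -0.60 ± 0.11, edgeR adjusted p = 0.033. In male KO mice it was -0.32 ± 0.18, edgeR adjusted p = 0.23, and passed without KO chow mouse 4 (adjusted p = 0.0321). Genotype on chow gave 0.05 ± 0.11, edgeR adjusted p = 0.789 in females and -0.47 ± 0.28, edgeR adjusted p = 0.453 in males, -0.24 ± 0.21, edgeR adjusted p = 0.493 without male WT chow mouse 1. Counts of Gm15883, an antisense gene over Cyp2f2, came to 1.08% of those of Cyp2f2.

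Hsd17b13, a hydroxysteroid dehydrogenase on the surface of lipid droplets (chr5:103955440-103977410, minus strand), had female levels of 266, 234, 296 and 309 CPM in WT mice on chow and 278, 314, 253 and 261 in KO mice on chow. On SC-435 female Hsd17b13 was at 174, 166, 173 and 174 CPM in WT mice and 229.9, 217, 211 and 169 in KO mice. Hsd17b13 in males was at 237, 301, 322 and 241 CPM in WT mice on chow and 264, 287, 309.6 and 356 in KO mice on chow. On SC-435 male Hsd17b13 was at 202, 224, 224 and 238 CPM in WT mice and 251, 214, 238 and 245 in KO mice. In female WT mice the 4 on SC-435 lay close together and below all on chow, and in KO mice of both sexes the 2 diets did not overlap either. The fall in female WT mice was -0.69 ± 0.09, edgeR adjusted p = 0.00676, to 0.62 of the level on chow, and held with any of the 8 mice left out. In female KO mice it was -0.42 ± 0.11, edgeR adjusted p = 0.0306, and it was lost without KO chow mouse 1 (0.0598) or 2 (0.089), or KO SC-435 mouse 2 (0.0712), 3 (0.0714) or 4 (0.0593). Male KO mice had -0.36 ± 0.11, edgeR adjusted p = 0.051, which passed without KO chow mouse 1 (adjusted p = 0.0311). Male WT mice had -0.31 ± 0.17, edgeR adjusted p = 0.836, and -0.37 ± 0.12, edgeR adjusted p = 0.133 without WT chow mouse 1. Genotype on chow left Hsd17b13 at -0.01 ± 0.12, edgeR adjusted p = 0.973 in females and 0.18 ± 0.19, edgeR adjusted p = 0.686 in males (0.10 ± 0.14, edgeR adjusted p = 0.686 without male WT chow mouse 1).

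Pigr, the receptor that carries polymeric immunoglobulin into bile (chr1:130826684-130852249, plus strand), had the smallest differences between group means of the 10. It ranged from 1702 to 2128 CPM in female WT mice on chow, 1384 to 2117 in KO mice on chow, 1571 to 1709.6 in WT mice on SC-435 and 1639 to 1854 in KO mice on SC-435. Ranges in males were 1418 to 1593, 858 to 1692, 1209.9 to 1628 and 1655 to 1818 CPM in the same order. Male KO chow mouse 4 was the lowest of all 32 mice for Pigr. Genotype on chow gave -0.08 ± 0.15, edgeR adjusted p = 0.747 in females and -0.06 ± 0.24, edgeR adjusted p = 0.924 in males (-0.04 ± 0.23, edgeR adjusted p = 0.917 without male WT chow mouse 1). SC-435 in KO mice gave -0.06 ± 0.14, edgeR adjusted p = 0.813 in females and 0.28 ± 0.20, edgeR adjusted p = 0.343 in males. SC-435 in WT mice gave -0.26 ± 0.10, edgeR adjusted p = 0.178 in females and -0.06 ± 0.18, edgeR adjusted p = 0.943 in males (-0.03 ± 0.13, edgeR adjusted p = 0.932 without that mouse). Pigr passed in none of the 14 tests of groups or interactions run with edgeR.

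A fit over all 32 mice gave the difference between SC-435 and chow averaged over sex and genotype, a comparison added after the values above were seen. Hsd17b13 (-0.44 ± 0.06, edgeR adjusted p = 4.75e-06), Cyp2f2 (-0.47 ± 0.08, edgeR adjusted p = 0.000118) and Hal (-0.34 ± 0.10, edgeR adjusted p = 0.0102) were lower on SC-435, and Asl (0.51 ± 0.12, edgeR adjusted p = 0.00382) and Cps1 (0.22 ± 0.08, edgeR adjusted p = 0.0371) were higher. In this fit 9.42% of all genes were higher and 13.1% lower. Those 5 genes passed in the same directions without male WT chow mouse 1, and Ass1 (0.36 ± 0.12, edgeR adjusted p = 0.0168), Arg1 (0.30 ± 0.10, edgeR adjusted p = 0.0234) and Gls2 (0.28 ± 0.10, edgeR adjusted p = 0.031) also passed as higher, against 16.8% of all genes higher and 17.7% lower. All 4 urea cycle enzymes and Gls2 were higher on SC-435 on average in that fit, while the 3 lower genes belong to histidine breakdown, foreign compound oxidation and lipid droplets. With all 32 mice Ass1 (edgeR adjusted p = 0.28), Arg1 (0.0691) and Gls2 (0.203) did not pass. Ass1 (edgeR adjusted p = 0.119) and Gls2 (0.112) did not pass without male WT SC-435 mouse 4 either. Without male WT SC-435 mouse 4 the first 5 genes passed again in the same directions and Arg1 also passed as higher (0.29 ± 0.10, edgeR adjusted p = 0.0429), against 10.4% of all genes higher and 13.7% lower. Sds (0.22 ± 0.15, edgeR adjusted p = 0.307) and Pigr (-0.02 ± 0.08, edgeR adjusted p = 0.877) did not pass in any of these fits.

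KO mice on SC-435 were also set beside WT mice on chow, the 2 groups that differ in both genotype and diet. In females Cps1 (0.74 ± 0.11, edgeR adjusted p = 0.00204), Ass1 (0.77 ± 0.19, edgeR adjusted p = 0.0185), Asl (0.65 ± 0.17, edgeR adjusted p = 0.0265) and Gls2 (0.58 ± 0.17, edgeR adjusted p = 0.0368) were higher in the KO mice and Hsd17b13 (-0.42 ± 0.12, edgeR adjusted p = 0.0343) was lower. That is 4 genes higher and 1 lower, where 8.73% of all genes were higher and 7.3% lower. In 3 genes every KO mouse lay above every WT mouse and in 1 below, beside 11.6% and 10.2% of all genes. The Cps1 call held with any of the 8 mice left out. The other 4 did not: Ass1 was lost without female WT chow mouse 2 (0.054) or KO SC-435 mouse 2 (0.0549) or 3 (0.053). Asl was lost without WT chow mouse 2, 3 or 4 or KO SC-435 mouse 2, 3 or 4 (up to 0.0773). Gls2 held without WT chow mouse 1 and was lost without any of the other 7 (up to 0.101), and Hsd17b13 was lost without WT chow mouse 3 or 4 or KO SC-435 mouse 2, 3 or 4 (up to 0.0832). Differences that did not pass were 0.12 ± 0.11 for Arg1, 0.03 ± 0.13 for Hal, 0.05 ± 0.19 for Sds, -0.27 ± 0.09 for Cyp2f2 and -0.13 ± 0.10 for Pigr (edgeR adjusted p from 0.0691 to 0.898), and Cyp2f2 passed as lower without female WT chow mouse 1 (adjusted p = 0.0327). This comparison shares its WT mice with the genotype comparison and its KO mice with the diet comparison.

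In males the same comparison passed 0 of the 10 genes with edgeR, 1 at an unadjusted p under 0.05, and 0.208% of all genes. DESeq2 passed 1 of the 10 (Cyp2f2) and voom 4 (Hal, Cyp2f2, Hsd17b13 and Pigr), with no share of all genes counted for either. Pigr lay higher in all KO mice (1 gene, beside 5.07% of all genes) and 2 genes, Hal and Cyp2f2, lay lower (beside 5.01%). Cyp2f2 was lower in the KO mice on SC-435 without male WT chow mouse 1 (-0.57 ± 0.10, edgeR adjusted p = 0.00711), against 5.7% of all genes lower. With all 8 mice the log2 differences in the urea cycle were 0.04 ± 0.17 for Cps1, -0.23 ± 0.38 for Ass1, -0.12 ± 0.30 for Asl and -0.03 ± 0.21 for Arg1 (edgeR adjusted p from 0.906 to 0.979). The amino acid enzymes had -0.37 ± 0.18 for Hal, -0.39 ± 0.38 for Sds and -0.14 ± 0.26 for Gls2 (edgeR adjusted p from 0.686 to 0.919), and the remaining genes -0.81 ± 0.23 for Cyp2f2, -0.21 ± 0.16 for Hsd17b13 and 0.20 ± 0.14 for Pigr (edgeR adjusted p from 0.274 to 0.806). The other 9 genes without male WT chow mouse 1 had 0.00 ± 0.12 for Cps1, 0.27 ± 0.18 for Ass1, 0.24 ± 0.17 for Asl, 0.09 ± 0.16 for Arg1, -0.19 ± 0.08 for Hal, -0.29 ± 0.37 for Sds, 0.13 ± 0.15 for Gls2, -0.28 ± 0.11 for Hsd17b13 and 0.22 ± 0.07 for Pigr (edgeR adjusted p from 0.0765 to 0.986).

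Between the sexes, 8 of the 10 genes had a lower mean level in female than in male WT mice on chow and Pigr a higher one, while the means of Hsd17b13 lay together. Cps1, Arg1, Sds and Cyp2f2 did not overlap between the sexes there, beside 5.59% of all genes with every female below every male, and Pigr had every female above every male, beside 6%. The edgeR test passed 0 of the 10, 7 at an unadjusted p under 0.05, DESeq2 2 (Cps1 and Cyp2f2) and voom 8, where 1.49% of all genes passed with edgeR. The female against male differences in the urea cycle were -0.51 ± 0.17 for Cps1, -0.97 ± 0.39 for Ass1, -0.84 ± 0.32 for Asl and -0.49 ± 0.18 for Arg1 (edgeR adjusted p from 0.278 to 0.409). They were -0.23 ± 0.21 for Hal, -0.73 ± 0.24 for Sds and -0.66 ± 0.27 for Gls2 (edgeR adjusted p from 0.279 to 0.728) for the amino acid enzymes and -0.97 ± 0.24 for Cyp2f2, 0.00 ± 0.18 for Hsd17b13 and 0.35 ± 0.17 for Pigr (edgeR adjusted p from 0.104 to 0.999) for the others. Without male WT chow mouse 1 the females were lower for Cyp2f2 (-0.72 ± 0.11, edgeR adjusted p = 0.00406), Cps1 (-0.54 ± 0.10, edgeR adjusted p = 0.0089) and Arg1 (-0.36 ± 0.10, edgeR adjusted p = 0.049), against 4.75% of all genes lower. The other 7 then had -0.46 ± 0.21 for Ass1, -0.48 ± 0.18 for Asl, -0.04 ± 0.13 for Hal, -0.62 ± 0.21 for Sds, -0.38 ± 0.17 for Gls2, -0.06 ± 0.13 for Hsd17b13 and 0.38 ± 0.11 for Pigr (edgeR adjusted p from 0.0697 to 0.891).

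In KO mice on chow the order differed. Sds was higher in females (0.79 ± 0.16, edgeR adjusted p = 0.04), where 1.38% of all genes were higher and 1.35% lower, a call that held without male KO chow mouse 4 (adjusted p = 0.0241) and was lost without any of the other 7 (up to 0.101). Hal and Gls2 also had every female KO mouse above every male KO mouse, beside 5.33% of all genes, without passing (0.80 ± 0.26, edgeR adjusted p = 0.157 and 0.62 ± 0.24, edgeR adjusted p = 0.218). The remaining differences were 0.29 ± 0.17 for Cps1, 0.62 ± 0.21 for Ass1, 0.27 ± 0.21 for Asl, -0.02 ± 0.29 for Arg1, -0.39 ± 0.19 for Cyp2f2, -0.12 ± 0.12 for Hsd17b13 and 0.38 ± 0.24 for Pigr (edgeR adjusted p from 0.175 to 0.983).

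The KO against WT difference on chow was positive in females and negative in males for Cps1, Ass1, Asl, Hal, Sds, Gls2 and Cyp2f2, and the difference between the sexes was tested as an interaction on 16 libraries. For Sds it was 1.5 ± 0.31, edgeR adjusted p = 0.166, for Ass1 1.57 ± 0.47, edgeR adjusted p = 0.456, for Gls2 1.26 ± 0.38, edgeR adjusted p = 0.47, for Hal 1.01 ± 0.36, edgeR adjusted p = 0.574 and for Cps1 0.78 ± 0.23, edgeR adjusted p = 0.456. The edgeR test passed 0 of the 10 genes, 6 at an unadjusted p under 0.05, DESeq2 2 (Cps1 and Sds) and voom 3 (Cps1, Ass1 and Sds), where 0.0235% of all genes passed with edgeR. The other interactions were 1.09 ± 0.40 for Asl, 0.46 ± 0.35 for Arg1, 0.56 ± 0.32 for Cyp2f2, -0.14 ± 0.22 for Hsd17b13 and 0.01 ± 0.30 for Pigr (edgeR adjusted p from 0.613 to 0.997). Without male WT chow mouse 1 the Sds interaction was 1.40 ± 0.29, edgeR adjusted p = 0.0506, and 0.431% of all genes passed. The other 9 were then 0.82 ± 0.20 for Cps1, 1.05 ± 0.32 for Ass1, 0.72 ± 0.31 for Asl, 0.33 ± 0.34 for Arg1, 0.82 ± 0.33 for Hal, 0.98 ± 0.32 for Gls2, 0.31 ± 0.24 for Cyp2f2, -0.08 ± 0.18 for Hsd17b13 and -0.02 ± 0.29 for Pigr (edgeR adjusted p from 0.0772 to 0.991).

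The other 3 interactions passed for none of the 10 genes with edgeR. Genotype by diet in females passed 2.64% of all genes with edgeR. It had 1 of the 10 at an unadjusted p under 0.05, 0 with DESeq2 and 1 with voom (Ass1, edgeR -0.61 ± 0.27, adjusted p = 0.224). Genotype by diet in males passed 0.0906% of all genes with edgeR, and had 3 of the 10 at an unadjusted p under 0.05 and 0 with DESeq2 or voom. Sex by diet in KO mice passed 0.211% of all genes with edgeR. Of the 10, 1 had an unadjusted p under 0.05 and 0 passed with DESeq2 or voom. The largest was Sds at -1.07 ± 0.42, edgeR adjusted p = 0.301. Over all 10 genes the interactions were -0.24 ± 0.17 for Cps1, -0.61 ± 0.27 for Ass1, -0.01 ± 0.24 for Asl, -0.02 ± 0.20 for Arg1, -0.30 ± 0.16 for Hal, -0.38 ± 0.33 for Sds, -0.43 ± 0.23 for Gls2, 0.08 ± 0.12 for Cyp2f2, 0.27 ± 0.15 for Hsd17b13 and 0.20 ± 0.16 for Pigr (edgeR adjusted p from 0.224 to 0.991) for genotype by diet in females. In males they were 0.29 ± 0.27 for Cps1, 0.98 ± 0.48 for Ass1, 1.11 ± 0.41 for Asl, 0.44 ± 0.35 for Arg1, 0.51 ± 0.33 for Hal, 1.16 ± 0.46 for Sds, 0.95 ± 0.36 for Gls2, 0.51 ± 0.30 for Cyp2f2, -0.06 ± 0.20 for Hsd17b13 and 0.32 ± 0.27 for Pigr (edgeR adjusted p from 0.279 to 0.912). Without male WT chow mouse 1 these were 0.32 ± 0.24 for Cps1, 0.46 ± 0.34 for Ass1, 0.75 ± 0.33 for Asl, 0.31 ± 0.33 for Arg1, 0.32 ± 0.29 for Hal, 1.05 ± 0.47 for Sds, 0.67 ± 0.29 for Gls2, 0.25 ± 0.21 for Cyp2f2, -0.01 ± 0.16 for Hsd17b13 and 0.28 ± 0.25 for Pigr (edgeR adjusted p from 0.231 to 0.976). Without male WT SC-435 mouse 4 they were 0.17 ± 0.24 for Cps1, 0.77 ± 0.45 for Ass1, 0.93 ± 0.39 for Asl, 0.37 ± 0.37 for Arg1 and 0.48 ± 0.36 for Hal (edgeR adjusted p from 0.493 to 0.826). The rest were 1.01 ± 0.47 for Sds, 0.83 ± 0.37 for Gls2, 0.54 ± 0.32 for Cyp2f2, -0.03 ± 0.21 for Hsd17b13 and 0.24 ± 0.27 for Pigr (edgeR adjusted p from 0.515 to 0.969). For sex by diet in KO mice they were -0.09 ± 0.22 for Cps1, -0.57 ± 0.29 for Ass1, -0.33 ± 0.28 for Asl, -0.31 ± 0.35 for Arg1 and -0.61 ± 0.29 for Hal (edgeR adjusted p from 0.404 to 0.922). They were -1.07 ± 0.42 for Sds, -0.54 ± 0.30 for Gls2, -0.02 ± 0.22 for Cyp2f2, -0.08 ± 0.16 for Hsd17b13 and -0.35 ± 0.26 for Pigr (edgeR adjusted p from 0.301 to 0.982) in the remaining genes. The falls of Hsd17b13 and Cyp2f2 with SC-435 were thus not shown to differ between WT and KO females, with interactions of 0.27 ± 0.15, edgeR adjusted p = 0.334 and 0.08 ± 0.12, edgeR adjusted p = 0.766.

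Genes with related tasks were described from lists. In female KO mice on chow 9.83% of all genes were higher and 5.05% lower. The 12 pericentral hepatocyte genes had a median log2 difference of -0.58 there, beside 0.10 for the 10 genes and -0.02 for all genes. Of the 12, 7 were lower and none higher. They included Tbx3 (-1.06 ± 0.19, edgeR adjusted p = 0.00639), the glutamine synthetase Glul (-0.88 ± 0.15, edgeR adjusted p = 0.00501), the glutamate carrier Slc1a2 (-0.75 ± 0.18, edgeR adjusted p = 0.0212) and Lgr5 (-0.70 ± 0.15, edgeR adjusted p = 0.014). Of 8 partners of the urea cycle 1 was lower, the glutamate dehydrogenase Glud1 (-0.35 ± 0.10, edgeR adjusted p = 0.0482). Of 10 other enzymes of amino acid breakdown 0 passed with edgeR (1 at an unadjusted p under 0.05). Of 10 other periportal genes the cadherin Cdh1 was higher (1.48 ± 0.17, edgeR adjusted p = 0.00159), which bile duct cells also make, and the lysophospholipid carrier Mfsd2a was lower (-3.05 ± 0.63, edgeR adjusted p = 0.0115). Among 14 hepatocyte regulators Cebpb (-1.55 ± 0.26, edgeR adjusted p = 0.00551), Hnf4a (-0.42 ± 0.11, edgeR adjusted p = 0.0295) and Creb3l3 (-0.40 ± 0.10, edgeR adjusted p = 0.0294) were lower.

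Some markers of other cells differed between these groups. In female KO mice on chow 4 of 6 tested cholangiocyte markers and 7 of 9 macrophage markers were higher, and 3 of 4 hepatocyte markers were lower. The shares of all genes were 9.83% higher and 5.05% lower. The summed cholangiocyte level was 36.1 to 69.6 CPM in female WT and 131 to 290.0 CPM in female KO mice on chow, and 97.9 to 142 CPM in KO mice on SC-435. The summed macrophage level was 279.6 to 328, 392 to 604 and 215 to 344 CPM in the same groups. In males the cholangiocyte sum was 24.2 to 34.8 CPM in WT mice on chow, 144 to 1179 in KO mice on chow and 49.5 to 60 in KO mice on SC-435. The male macrophage sum overlapped between these groups, at 209 to 354, 229 to 805 and 198 to 315 CPM in that order. The male hepatocyte sum also overlapped on chow, at 65057 to 169008 CPM in WT and 45535 to 69489 CPM in KO mice. Without male WT chow mouse 1, 2 of 9 macrophage markers were higher in male KO mice on chow and 0 lower. These were Gpnmb (7.03 ± 1.06, edgeR adjusted p = 0.0145) and Trem2 (4.47 ± 0.72, edgeR adjusted p = 0.0176). In that fit 5 of 6 tested cholangiocyte markers were higher, and 0 of 4 hepatocyte markers passed. There 2.92% of all genes were lower, and the share higher is not given. Among the cholangiocyte markers, Sctr had no count in 3 of the 32 libraries and Cftr in 1. Krt19, Krt7, Epcam, Sox9 and Spp1 and all macrophage markers were counted in every library. The part of these cells in the levels of the 10 genes was not tested.

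**Figure D4:**
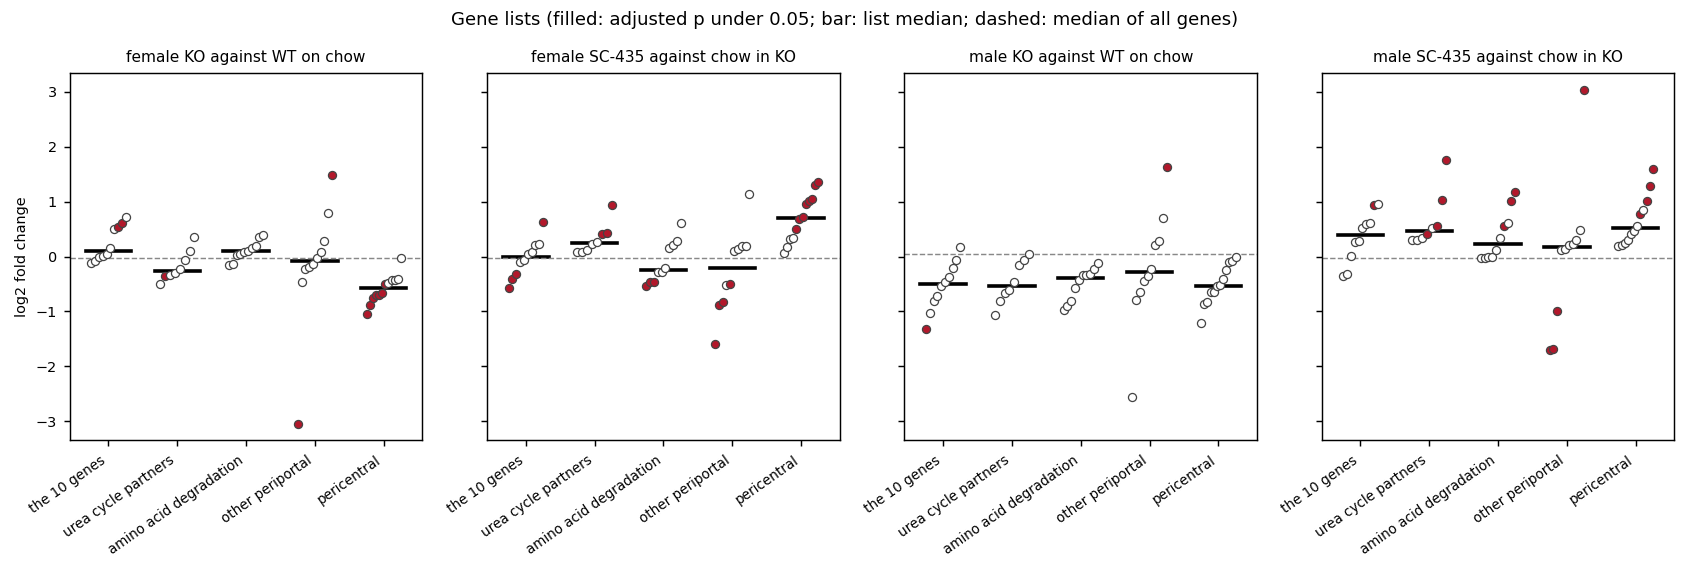
Log2 fold changes of the 10 genes and of the genes of 4 related lists in 4 comparisons, with 1 point a gene, filled where the adjusted p is under 0.05, a bar at each list's median and a dashed line at the median of all genes. The pericentral genes lie below 0 in female KO mice on chow (median -0.58) and above 0 with SC-435 in female KO mice (median 0.70), while the medians of the 10 genes are 0.10 and 0.00.

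In male KO mice on chow, the lists held 1 gene that passed, Cdh1 (1.63 ± 0.21, edgeR adjusted p = 0.0138), where 0.933% of all genes were higher and 0.151% lower. With male WT chow mouse 1 left out, 2.92% of all genes were lower. Without male WT chow mouse 1, the transaminase Got1 (-0.73 ± 0.14, edgeR adjusted p = 0.0256), the pericentral Slc1a2 (-0.94 ± 0.21, edgeR adjusted p = 0.0383) and Cyp1a2 (-0.61 ± 0.13, edgeR adjusted p = 0.0328) and the regulators Cebpa (-0.72 ± 0.12, edgeR adjusted p = 0.0179) and Nr3c1 (-0.37 ± 0.07, edgeR adjusted p = 0.0256) also passed as lower, and Cdh1 was again higher (1.68 ± 0.18, edgeR adjusted p = 0.00519).

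SC-435 in female KO mice left 8 of the 12 pericentral genes higher and none lower, with a median of 0.70 beside -0.02 for all genes. In that comparison 8.56% of all genes were higher and 9.23% lower. The ammonium carrier Rhbg (1.35 ± 0.15, edgeR adjusted p = 0.00138), Tbx3 (1.30 ± 0.16, edgeR adjusted p = 0.00169), Cyp1a2 (1.05 ± 0.16, edgeR adjusted p = 0.00433) and the ornithine aminotransferase Oat (1.0 ± 0.20, edgeR adjusted p = 0.00989) had the largest differences. Of the urea cycle partners, 3 of 8 were higher, namely the mitochondrial carbonic anhydrase Car5a (0.93 ± 0.19, edgeR adjusted p = 0.0119), Nags, which makes the activator of Cps1 (0.43 ± 0.09, edgeR adjusted p = 0.0148), and the aspartate carrier Slc25a13 (0.41 ± 0.08, edgeR adjusted p = 0.00876). Of the amino acid enzymes 3 of 10 were lower, Gldc (-0.54 ± 0.10, edgeR adjusted p = 0.00823), Sdsl (-0.47 ± 0.14, edgeR adjusted p = 0.0387) and Amdhd1 (-0.46 ± 0.09, edgeR adjusted p = 0.0107), the last of which acts in the histidine pathway that Hal opens. Among other periportal genes 4 of 10 were lower: Cdh1 (-1.59), the protease Ctsc (-0.89), Hsd17b6 (-0.82) and the gluconeogenic Pck1 (-0.50). Foxa2 (-0.77) and Apc (-0.25) were lower and Foxa3 (0.74) higher among the 14 regulators.

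With SC-435 in male KO mice, 8.8% of all genes were higher and 8.36% lower. SC-435 in these mice raised 4 of the 8 urea cycle partners, Got1 (1.76 ± 0.33, edgeR adjusted p = 0.0103), Car5a (1.03 ± 0.27, edgeR adjusted p = 0.0318), Slc25a13 (0.56 ± 0.12, edgeR adjusted p = 0.0168) and Got2 (0.40 ± 0.10, edgeR adjusted p = 0.0258). Car5a and Slc25a13 thus passed as higher in KO mice of both sexes, as Asl did. Of the amino acid enzymes 3 of 10 were higher, Etnppl (1.18), the proline oxidase Prodh (1.01) and Aass (0.55), and none lower. Mfsd2a was higher (3.03) and Hsd17b6 (-1.70), Cdh1 (-1.69) and Ctsc (-0.99) lower among other periportal genes. Pericentral genes passed as higher in 4 of 12 cases, Oat (1.59), Rhbg (1.29), Slc1a2 (1.01) and Glul (0.77). Of the regulators Cebpb was higher (0.72) and Ctnnb1 lower (-0.25).

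In female WT mice SC-435 raised 1 of 8 urea cycle partners, Got1 (0.89 ± 0.20, edgeR adjusted p = 0.0384), where 2.4% of all genes were higher and 1.88% lower. Prodh was higher (0.81 ± 0.19, edgeR adjusted p = 0.0427) and Ftcd, which ends histidine breakdown, lower (-0.52 ± 0.09, edgeR adjusted p = 0.0181). Hsd17b6 (-1.80), Cdh1 (-0.76) and Ctsc (-0.73) were lower among other periportal genes, as in KO mice of both sexes. Oat (1.24), Rhbg (1.16) and Slc1a2 (0.62) were higher among the 12 pericentral genes, and Onecut1 (-2.42), Foxa2 (-0.91) and Foxa1 (-0.75) lower among the 14 regulators.

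In male WT mice edgeR passed 0 genes of the 5 lists with SC-435, 9 at an unadjusted p under 0.05, and without male WT SC-435 mouse 4 it passed 1, Hsd17b6, where 0.0259% of all genes passed. Without male WT chow mouse 1, Rhbg was higher (1.36 ± 0.29, edgeR adjusted p = 0.0457) and Ftcd (-0.52 ± 0.11, edgeR adjusted p = 0.0428), Hsd17b6 (-2.88 ± 0.37, edgeR adjusted p = 0.00844) and Onecut1 (-2.30 ± 0.48, edgeR adjusted p = 0.044) were lower there. In that fit 1.12% of all genes were lower.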

How the data were processed

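Per the labels, livers were frozen and RNA was extracted with TRIzol, and poly-A libraries were sequenced on an Illumina platform. The authors' table gives whole-number counts per gene with GRCm38 coordinates for each of 32 mice, which were deposited without normalization. The submitters' processing notes name HISAT2 2.0.5, featureCounts 1.5.0-p3, DESeq2 1.20.0, GATK 4.1.1.0 and mm10, without their roles, and strandedness is not stated. FPKM values and the columns of the authors' own comparisons, which hold fold changes and p-values, were not used. Sources differ on the start of SC-435, which the labels put 3 weeks after weaning and the paper at weaning.

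EdgeR 4.0.16 in R 4.3.3 (filterByExpr, TMM, glmQLFit, glmQLFTest) was run on the counts of 8 libraries for each of 10 comparisons of groups and of 16 for each of 4 interactions, with Benjamini-Hochberg adjustment over all genes tested. Each SE was taken from the F statistic, as the log2 difference over its square root. CPM uses TMM factors over the 32 libraries. Library totals of 36476021 to 44771350 counts leave every member with counts in every mouse. DESeq2 1.42.0, limma 3.58.1 (voom with quality weights), other size factors and filters, a replicate block, all 4 groups of a sex in 1 fit and leaving out each mouse were the alternatives, and the fit averaged over sex and genotype, its fits and the list counts without male WT chow mouse 1 or male WT SC-435 mouse 4 and DESeq2 without the former were added after seeing the data. Scripts were tested on simulated data.

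The 10 genes and the lists were chosen with earlier results of these data known. All 10 are named in every comparison, and at most 4 genes of a list, those with the largest differences among passing genes. Counts differed between mice of a group by far more than sampling noise (lowest chi-square per gene 20.3 over 48 pairs). The labels do not say whether mice were littermates, so p-values measure the spread between these mice. The numbers were taken to pair mice where all 4 correlations of their deviations were over 0.1, which held only for male KO against WT on chow (correlations 0.16, 0.11, 0.101 and 0.17), where the blocked value is given. The labels give no such pairing, and mice of unlike numbers were not compared, so these correlations do not show that the mice were paired. Female against male WT mice on chow had correlations of 0.077 to 0.449 and were not taken as paired. Positions equal those of GENCODE vM21. The values of 1 marker gene are not reported here.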

Additional observations from a re-analysis of the deposited data

Results flagged for a closer look

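Each of the 80 sets of 4 mice, 10 genes in 8 groups, was checked for a mouse far from the other 3, by the gap to its nearest neighbour over the range of the group. Chance marks about 5% of groups, and 12 were marked. Male WT chow mouse 1 was marked as highest for Ass1 (8512 CPM), Asl (1246 CPM), Arg1 (1764 CPM), Hal (908 CPM) and Gls2 (1016 CPM). Without TMM, in 1000000 raw counts the same mouse had 564 for Hal, against 564 to 582 in the other 3, and 3044 for Cps1, against 5033 to 5733. Male KO SC-435 mouse 3 was marked as highest for Hal (569.6 CPM), Sds (397 CPM) and Gls2 (814 CPM).

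The other marked values were Asl in female KO chow mouse 4 (553 CPM, highest), Hal in male WT SC-435 mouse 2 (548 CPM, highest), Cyp2f2 in male WT SC-435 mouse 4 (967 CPM, highest) and Hsd17b13 in female WT SC-435 mouse 2 (166 CPM, lowest of a group that spans 166 to 174 CPM).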

How the results depend on the processing

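Counts of the 10 genes that passed are given for each comparison, first as reported and then where an alternative moved them by over 1.5 times. Other alternatives with all mice kept moved a count by at most 1. Female KO against WT on chow had 2, with library size alone 4, voom 4, all 4 groups of the sex in 1 fit 4, the replicate block 1 and 0 to 3 with 1 mouse left out. Female SC-435 in KO had 4, and 1 to 4 with 1 mouse left out. Female SC-435 in WT had 3, with DESeq2 6, voom 6, the block 1 and 1 to 6 with 1 mouse left out. Female KO on SC-435 against WT on chow had 5, with the block 3 and 1 to 6. Male KO against WT on chow had 1, with DESeq2 2 (2 also without male WT chow mouse 1), voom 2, the 4-group fit 2, the block 0 and 0 to 1. Male SC-435 in KO had 1, with library size alone 3, DESeq2 5, a filter at a mean of 50 counts 2, voom 2, the block 0, the 4-group fit 0 and 0 to 2. Male SC-435 in WT had 0, with voom 2 and 0 to 1. Male KO on SC-435 against WT on chow had 0, with DESeq2 1, voom 4 and 0 to 1. Females against males had 0 in WT, with library size alone 1, DESeq2 2, voom 8 and 0 to 3, and 1 in KO, with DESeq2 3, voom 2, the block 0 and 0 to 1. The genotype by diet interaction in females had 0 and voom 1. The sex by genotype interaction had 0, DESeq2 2 (3 without male WT chow mouse 1) and voom 3. The averaged SC-435 difference had 5, 8 without male WT chow mouse 1 and 6 without male WT SC-435 mouse 4. The cause of these changes was not tested. No called difference of the 10 genes reversed. The labels give no pairing by number in any comparison. Outside male KO against WT on chow the correlations ran from -0.31 to 0.45, so the block is not evidence of a weaker difference there. Of 17 calls of the 10 genes in comparisons of 2 groups, 3 held with any mouse left out, 14 were lost without at least 1 mouse and 1 of those without each of the 8.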
